A study of Mus musculus with 5 samples.

Results

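The miR-17-92 cluster and its paralogs were examined in the Ago-bound RNA of developing mouse liver. The 9 members were mmu-miR-17-5p, mmu-miR-18a-5p, mmu-miR-19a-3p, mmu-miR-19b-3p, mmu-miR-20a-5p and mmu-miR-92a-3p of the miR-17-92 cluster, and mmu-miR-106b-5p, mmu-miR-93-5p and mmu-miR-25-3p of the miR-106b-25 cluster, and the prefix for mouse is left out from here on. They were chosen by name from 995 miRNAs in the tables of miRNA-target interactions, and every entry of these names was taken. Entries at the same position were collapsed within a seed group, which left between 2200 (adult) and 6337 (e12.5) positions per library of between 221587 and 766266 positions of all miRNAs, and 11708 positions over the 5 libraries.

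Ago HITS-CLIP crosslinks RNA to Argonaute with ultraviolet light, so that both the miRNAs held by Argonaute and the fragments of their targets are sequenced. The libraries came from livers of unmodified C57BL/6 mice (C57BL/6J in the study's methods) taken at 3 embryonic stages named by the day of gestation, e12.5, e15.5 and then e18.5, at postnatal day 7 (P7) and from adult animals of 6 to 8 weeks, without treatment. Each stage had 1 labelled sample, called its library here, and runs of 5 values follow the order of these stages. Ago2 was precipitated in all of them, and an Ago1 antibody was added at P7 and in adult, so that antibody and postnatal stage cannot be told apart. The labels give no replicates, and the number of livers behind a library was not given in the sources used here, so each difference between stages is a difference between libraries, and intervals cover counting error only. Each embryonic table is made of 2 lists of entries, on which the labels say nothing. The study names 2 biological replicates for Ago2 and a second replicate of e18.5. Whether the lists are these replicates could not be settled from the sources used here, so an embryonic value may pool replicates. The lists were added up. They often differed, so that embryonic values are sums of unlike parts. Values of single lists are given for some members and sites only.

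A miRNA finds its targets mainly through bases 2 to 8 of its own sequence, the seed, which pairs with the target mRNA, most often in the 3′UTR. The miR-17-92 transcript, also called oncomiR-1, is induced by MYC and E2F factors and is known for its roles in proliferation, in B cell and erythroid development and in lymphoma and liver cancer. The miR-106b-25 cluster lies within the replication gene Mcm7 and is transcribed with it. Known targets include cell cycle inhibitors and E2F factors, the pro-apoptotic gene Bcl2l11 and receptors of TGF-beta and BMP. Fetal liver is the main site of blood formation before birth, and the liver becomes an organ of hepatocytes in the days around and after birth.

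These mature sequences, from RefSeq with positions on GRCm38.p6, show how the 9 miRNAs fall into 4 seed groups. Capitals mark the seed. All 9 names were matched.
miR-17-5p: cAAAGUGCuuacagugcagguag
miR-20a-5p: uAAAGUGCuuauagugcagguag
miR-93-5p: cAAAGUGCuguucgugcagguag
miR-106b-5p: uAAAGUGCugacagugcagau
miR-18a-5p: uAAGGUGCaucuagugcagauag
miR-19a-3p: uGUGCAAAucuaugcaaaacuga
miR-19b-3p: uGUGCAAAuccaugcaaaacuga
miR-92a-3p: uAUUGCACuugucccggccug
miR-25-3p: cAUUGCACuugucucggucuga
The first 4 shared 1 seed and are called the miR-17 group here. The seed of miR-18a-5p differed from that of miR-17-5p by the single substitution A4G, counted from 1 at the 5′ end of the miRNA, with miR-17-5p given first. The miR-19 group held miR-19a-3p and miR-19b-3p, which were identical at 22 of 23 bases, and the miR-92 group held miR-92a-3p and miR-25-3p, identical at 18 of the 21 bases compared. Within the miR-17 group, miR-17-5p matched miR-20a-5p at 21 of 23 bases and miR-93-5p at 19 of 23.

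The 6 hairpins of the miR-17-92 cluster lie within 836 bases at chr14:115043671-115044506 on the plus strand, inside the long noncoding gene Mir17hg. The 3 hairpins of the miR-106b-25 cluster lie within 498 bases at chr5:138165321-138165818 on the minus strand, inside the protein-coding gene Mcm7. Copies of miR-19b-3p and miR-92a-3p also come from the miR-106a-363 cluster at chrX:52741693-52742567 on the minus strand, and the mature sequence does not tell the 2 loci apart. The tables give up to 2 numbers per list for each of these miRNAs, without naming the locus. In the second list of e12.5 they were nearly equal for miR-19b-3p, 56077 and 55782, and unlike for miR-92a-3p, 184508 and 28774, and the higher one was used.

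The target sites with the most reads in each group are given here in mm10, 5′ to 3′ on the mRNA strand. They were ranked among 3′UTR sites of 7 or more matched bases found at the same position at all 5 stages. Capitals mark the bases that match the seed, with the adenine opposite base 1 of the miRNA where the site has it.
Slc16a6, chr11:109451115-109451142, minus strand: tgtgacttcgGCACTTTAaaagctattt
Eif4g2, chr7:111072314-111072341, minus strand: ctgtagagatGCACTTTgctcagtaata
Trip11, chr12:101837502-101837529, minus strand: agacttagtaGCACTTTAaagaaaccat
Notch2, chr3:98148164-98148191, plus strand: ttctgaacctGCACCTTAatttctctcc
Rabl6, chr2:25583049-25583076, minus strand: agcccagaggGCACCTTcttagacactc
Hipk1, chr3:103742488-103742515, minus strand: ttgggattgtTTTGCACAggtgtgtctg
Pnrc1, chr4:33245732-33245759, minus strand: agactgtttaTTTGCACAggtaccgaaa
Lifr, chr15:7194740-7194767, plus strand: atttgttgtgTTTGCACtaaggtaattt
Sertad3, chr7:27477154-27477181, plus strand: gccggaccatGTGCAATAgggcagaagt
Mcl1, chr3:95660822-95660849, plus strand: agccttgtgaGTGCAATAggggactctt
Dnajb12, chr10:59899186-59899213, plus strand: gctgagccatGTGCAATAagaacacaga
All 11 lie in the 3′UTR of protein-coding transcripts in GENCODE. A site with bases 2 to 7 matched is a 6mer. With base 8 also matched it is a 7mer-m8, with the adenine instead a 7mer-A1, and with both an 8mer.

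All 9 members had lower levels at P7 and in adult than at each embryonic stage, with the lists summed and in each list. The embryonic stage with the highest level was the same in both lists in 3 members, e12.5 for miR-19a-3p and miR-19b-3p and e15.5 for miR-25-3p, and differed between the lists in the other 6. Their summed share of all miRNA reads was 3.32%, 3.48%, 2.46%, 1.07% and 0.499% from e12.5 to adult. From e12.5 to adult, 8 of the 9 were lower by at least 2-fold on the scale of log2(rpm + 1), where rpm is reads per 1000000 miRNA reads, and none was higher. Among the 383 miRNAs with a mean of at least 10 rpm, 58.7% were lower by at least 2-fold and 22.5% were higher. The median change was -1.87 over those miRNAs and -3.10 over the members. A fall was thus the more common course among miRNAs of this tissue. The depth behind these values was between 7781484 and 25546696 miRNA reads per library.

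The most abundant member before birth was miR-92a-3p, which ranked 12th of 745 miRNAs at e12.5 with 9557 rpm. It then had 9169, 5135, 3108 and 781 rpm, and ranked 63rd of 585 in adult. Its seed partner miR-25-3p had 3224, 4695, 3112, 1947 and 376 rpm in the same order. Both declined at each step after e15.5. In the second list miR-92a-3p had 9174 rpm at e12.5 and 9230 at e15.5.

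With the lists summed, the largest falls from e12.5 to adult were in the miR-19 group. The level of miR-19a-3p was 2123, 1620, 1291, 236 and 82.8 rpm from e12.5 to adult, a log2 change of -4.66. The level of miR-19b-3p was 3823, 3012, 3713, 815 and 254 rpm, a change of -3.90. For this group the lists of 1 library differed most, and miR-19a-3p had 3883 and 1648 rpm at e12.5, while miR-19b-3p had 7652 and 2788 rpm at e12.5 and 4487 and 1455 rpm at e18.5 in the first and second list. The fall of the group from e12.5 to adult was present in both lists, at -5.09 with the first list and -3.71 with the second. With the second list its rank was lost, since miR-18a-5p changed by -3.80, and miR-19b-3p, at -3.45, fell less than miR-92a-3p, at -3.55. miR-18a-5p, the one member with its own seed, had 2913, 2747, 1902, 560 and 219 rpm, a change of -3.73.

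The miR-17 group fell least, by 1.82 on the log2 scale. miR-20a-5p was its largest member at e12.5 with 5446 rpm, followed by 5502, 3777, 970 and 1385 rpm. miR-93-5p had 3992, 5542, 3056, 2295 and 1136 rpm and made up 57.4% of the group at P7, against 34.5% at e12.5. miR-17-5p, after which the cluster is named, had 1345, 1662, 1254, 309 and 220 rpm and never exceeded 13.2% of its group with the lists summed. At e18.5 it had 1443 and 702 rpm in the first and second list.

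miR-106b-5p was the member that did not pass the 2-fold limit. It had 800, 849, 1404, 424 and 532 rpm from e12.5 to adult, a log2 change of -0.59, and its highest value was at e18.5. In that library the first list held 9470 of its reads and the second 1459, which came to 734 rpm of the second list, so the high value at e18.5 rests on the first list. The other arm of the same hairpin, miR-106b-3p, went from 2605 rpm at e12.5 to 84.6 in adult, a change of -4.93. The ratio of the 3p to the 5p arm was 3.26, 4.39, 0.778, 2.86 and 0.159 from e12.5 to adult. Within e18.5 it was 0.563 in the first list and 2.17 in the second. Both lists of e12.5 gave a ratio above 3, at 3.32 and 3.24, and those of e15.5 gave 2.78 and 5.41. The arm with more reads was thus 3p at e12.5, e15.5 and P7, and 5p in adult.

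The passenger arms and the X-linked paralogs were described by the same rule. Of 17 such mature miRNAs, 14 were listed, and 13 of these were lower in adult than at e12.5 by at least 2-fold, while miR-20a-3p changed by -0.94. Of the 9 with a mean of at least 10 rpm, 8 were lower, beside 58.7% of all miRNAs above that mean. miR-17-3p was the one with the highest level relative to its partner within miR-17-92, at 1.02 times the level of miR-17-5p at e15.5 and 0.342 times in adult. The X-linked miR-106a-5p and miR-20b-5p, which share the miR-17 seed, had 69.8 and 128 rpm at e12.5 and 10.2 and 24.0 rpm in adult.

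The members made up nearly all reads with their seeds, with 1 exception. In the miR-17, miR-18 and miR-19 groups their share of same-seed reads was at least 97.3% in each library. In the miR-92 group it was 92.6%, 96.2%, 89.1%, 94.1% and 71.4% from e12.5 to adult. The remainder was mainly miR-32-5p, which had 0.0993% of miRNA reads at e12.5 and 0.0459% in adult. Sites of that group in adult liver can therefore belong to miR-32-5p as well as to the 2 members.

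**Figure D1:**
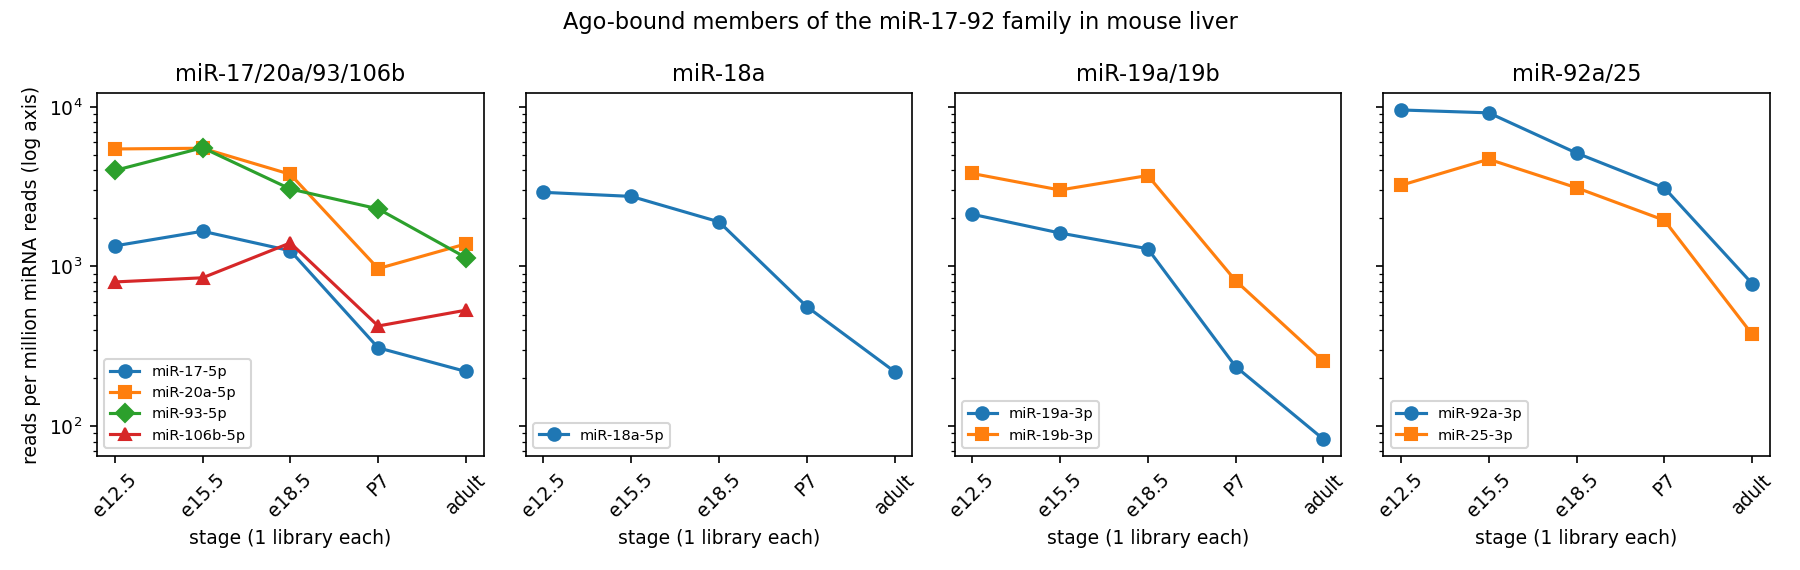
Level of each member in rpm (log axis) at the 5 stages, 1 panel per seed group and 1 point per library. All 9 curves drop from e18.5 to P7, miR-20a-5p and miR-106b-5p were higher in adult than at P7, and miR-19a-3p ends lowest at 82.8 rpm.

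miRNAs of blood cells moved in the same direction. The 7 blood cell miRNAs examined, among them miR-142a-3p, miR-144-3p and miR-451a, summed to 63.2%, 52.7%, 40.4%, 13.0% and 6.94% of miRNA reads from e12.5 to adult, and 6 of the 7 fell by at least 2-fold. The exception, miR-150-5p, had between 0.00114% and 0.0344% of reads. The 3 hepatocyte miRNAs, with miR-122-5p as the defining one, rose from 2.36% at e12.5 to 23.0% in adult, and miR-122-5p was present at every stage, from 1.44% at e12.5 to 12.3% at P7. The endothelial miR-126a-3p had 0.600% at e12.5 and 5.05% in adult, and the 4 mesenchymal miRNAs summed to 0.259% and 0.791%. That sum was highest at P7, at 1.24%. From e12.5 to adult 3 of the 4 rose by at least 2-fold, while miR-214-3p fell, by 1.09 on the log2 scale. In whole liver, fewer cells of a type and less RNA per cell cannot be told apart, and the part of the blood cells in the fall of the members was not tested. With miR-142a-3p, miR-144-3p and miR-451a taken out of the total, the falls were larger, between -3.08 in the miR-17 group and -5.39 in the miR-19 group.

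The 5 other miRNAs whose profile over the libraries was most like the summed members were miR-142a-3p, miR-185-5p, miR-486a-5p, miR-486b-5p and miR-1198-5p. Likeness was the mean absolute difference over the 5 libraries on log2(rpm + 1), after each profile's own mean was subtracted, among 247 miRNAs with a mean of at least 50 rpm. It was 0.113 for miR-142a-3p and 0.233 for miR-1198-5p, against a median of 1.22. The sequences of miR-486a-5p and miR-486b-5p come from overlapping genes and their reads may be shared.

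The next question was whether the Ago-bound sites followed the miRNAs. Clusters are groups of overlapping reads, and the share of 3′UTR clusters with a site of the group was compared. In the miR-17 group it was 1.74% of 39452 clusters at e12.5, with a Wilson 95% interval of 1.61% to 1.87%. It was then 1.89%, 1.60%, 1.30% and 1.01%. The ratio of adult to e12.5 was 0.582 (95% interval 0.491 to 0.690), the one among the 4 groups past the 1.5-fold limit. The miR-19 group went from 1.53% to 1.16%, a ratio of 0.758 (0.643 to 0.893). The miR-92 group went from 0.978% to 0.741%, a ratio of 0.758 (0.617 to 0.931). The miR-18 group went from 0.768% to 0.628%, a ratio of 0.818 (0.653 to 1.02), so that its interval includes no change. With genes counted in place of clusters, all 4 ratios were past the limit, between 0.369 and 0.481, beside a family median of 0.487.

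These ratios lay within the range of other seeds. Of 679 seed families that had 50 or more such clusters in e12.5 and adult summed, 39.6% were lower by at least 1.5-fold and 16.2% were higher. The median ratio of the families was 0.802. The miR-17 seed had 240 families with a lower ratio, and the miR-18 seed had 348. The order of the groups also differed from that of the miRNAs, since the miR-17 group fell least in reads, at 3.54-fold, and most in sites. The fall of the site share in the miR-17 group came after e15.5, with ratios to e12.5 of 1.09, 0.919 and 0.748 at the next 3 stages. In the miR-92 group these were 1.12, 1.02 and 0.715, with an interval of 0.604 to 0.846 at P7.

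3 of the 4 groups had more of their sites in 3′UTRs than most seeds. The ratio of 3′UTR to coding sequence (CDS) clusters in the miR-17 group was 1.18, 1.17, 0.989, 1.04 and 0.622 from e12.5 to adult. The median of the seed families was 0.644, 0.609, 0.572, 0.557 and 0.364 in the same order. The miR-19 group had 0.971, 0.987, 0.950, 1.07 and 0.646, and the miR-92 group 1.01, 0.865, 0.843, 0.859 and 0.631. These groups ranked between 47th and 116th of 466 to 629 families. The miR-18 group had 0.647 at e12.5 and 0.325 in adult, and ranked between 299th and 341st.

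The same 3 groups had longer matches. Sites with 7 or more matched bases were 59.5% of the 2059 sites of the miR-17 group at e12.5 (Wilson 95% interval 57.4% to 61.6%), 64.4% in the miR-19 group and 54.5% in the miR-92 group, against a median of 45.8% over families. In the miR-18 group they were 42.0%, but at e18.5 they were 47.8%, above the family median of 45.6% there. In adult liver the shares were 51.0%, 56.9%, 50.6% and 33.0%, with a median of 45.3% over families. The interval of the miR-17 group in adult was 47.0% to 55.0%, below its interval at e12.5. Among 3′UTR sites alone this difference was not present, with 68.3% at e12.5 and 69.6% in adult. The share of 8mers in the miR-17 group was 13.5% at e12.5, between 14.9% and 16.2% at the 3 stages between and 9.43% in adult.

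**Figure D2:**
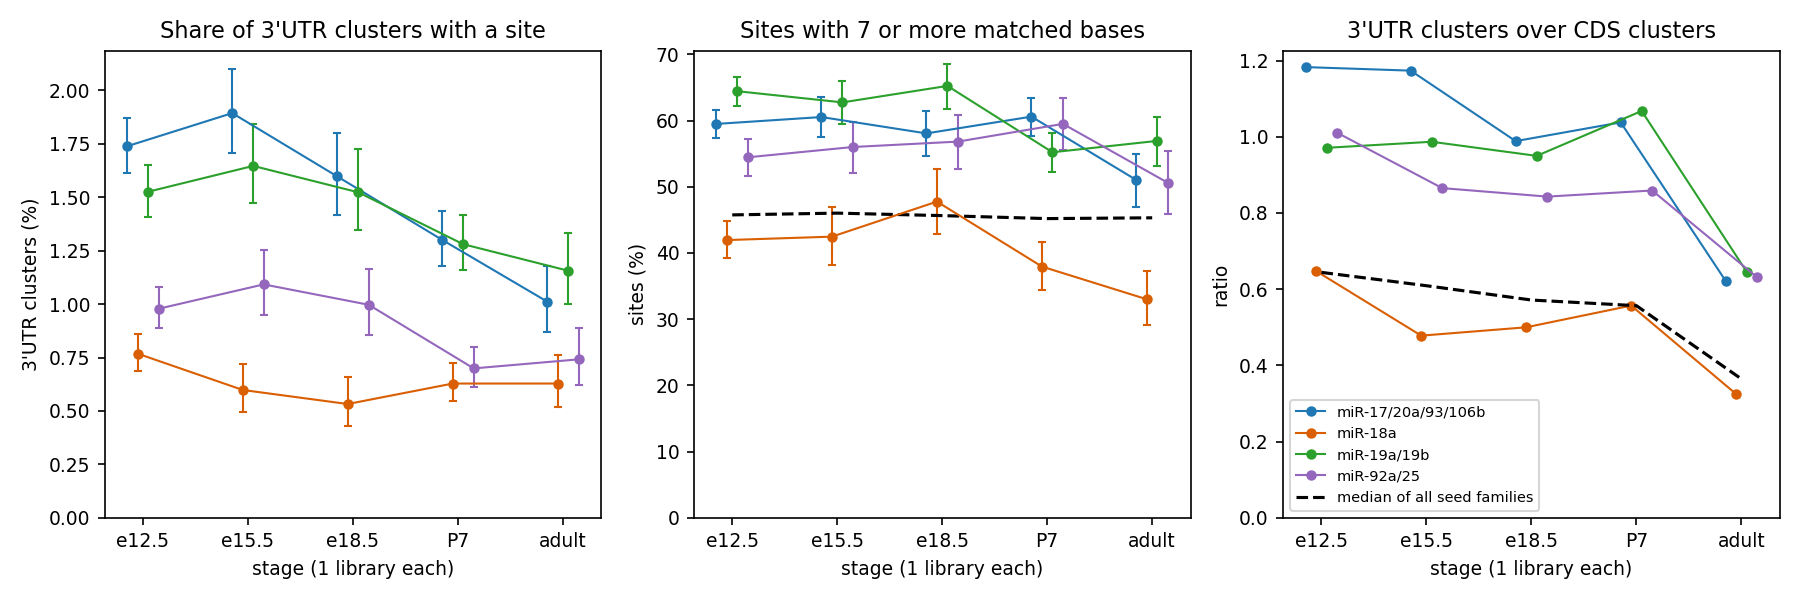
Share of 3′UTR clusters with a site of each seed group (left, percent), share of sites with 7 or more matched bases (middle, percent) and ratio of 3′UTR to CDS clusters (right) at the 5 stages, with Wilson 95% intervals in the left and middle panels and the median over seed families as a dashed line. The miR-17, miR-19 and miR-92 groups lie above the family median in the middle and right panels, and the miR-18 group ranks lower in both.

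Sites of these 3 groups were more often conserved than those of most seeds. Each deposited site carries a conservation score from 0 to 1, whose method is not given in the sources used here. Of the 259 3′UTR sites of the miR-92 group with 7 or more matched bases at e12.5, 67.2% had a score of at least 0.9 (Wilson 95% interval 61.2% to 72.6%). The share was then 73.9%, 66.1%, 67.6% and 66.7%, and this seed ranked between 1st and 4th among 185 to 514 families with at least 50 such sites. The miR-17 group had 60.2%, 65.4%, 68.6%, 60.4% and 52.7%, and the miR-19 group 59.9%, 61.4%, 69.0%, 54.3% and 54.5%. The median of the families was between 29.2% and 38.2%. The miR-18 group had 37.7%, 51.1%, 34.1%, 29.9% and 33.3%, with intervals of 29.8% to 46.3% at e12.5 and 37.2% to 64.7% at e15.5, where it had 47 such sites.

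The conserved share of 6mer sites lay below the interval of longer sites in every library of the miR-17 and miR-92 groups, and in 3 libraries of the miR-19 group. At e12.5 the share with a score of at least 0.9 was 38.1% of 6mers in the miR-17 group and 37.8% in the miR-92 group, both outside the intervals of their longer sites. In the miR-19 group the 6mers had 58.3%, within the interval of the longer sites, 55.2% to 64.4%. They had 57.6% at e15.5, also within the interval, but at the last 3 stages they had 61.3%, 43.4% and 34.9%, below the intervals of 62.01% to 75.3%, 47.9% to 60.5% and 45.7% to 63.1%.

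**Figure D3:**
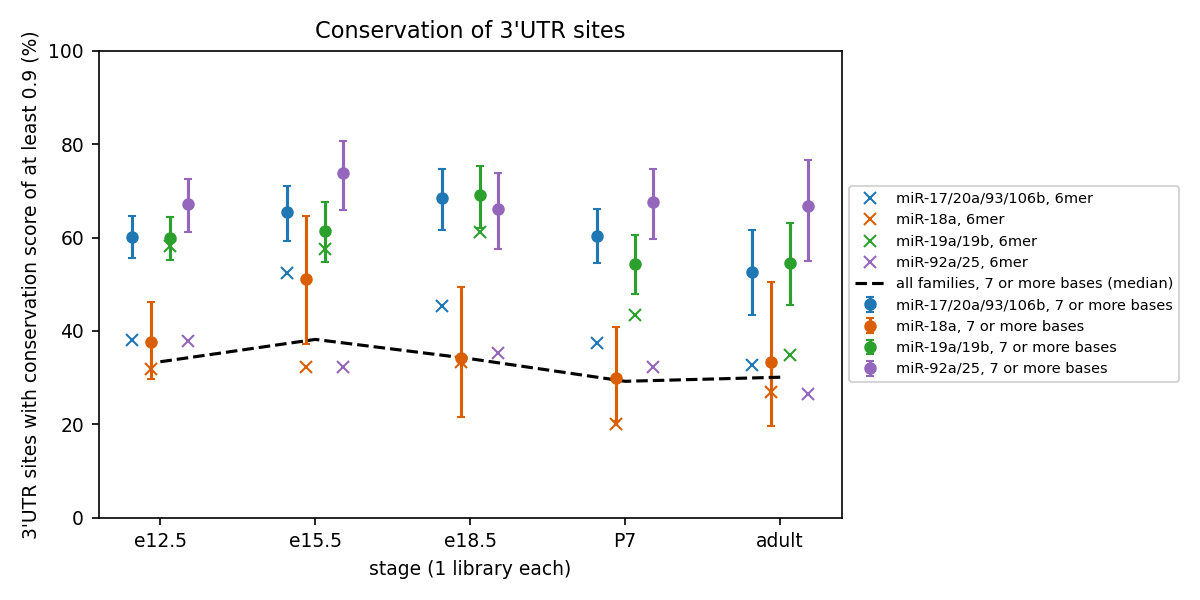
Percent of 3′UTR sites with a conservation score of at least 0.9 at the 5 stages, for sites with 7 or more matched bases (circles, with Wilson 95% intervals) and 6mers (crosses) of each seed group, and the family median for the longer sites (dashed). The circles of the miR-92 group lie between 66.1% and 73.9%, while the family median lies between 29.2% and 38.2%.

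Genes named in the literature as targets carried a site of their group more often than all genes did in every library of the miR-17, miR-19 and miR-92 groups. Of 40 genes listed for this group, 37 had a 3′UTR site of any miRNA in at least 1 library, and 23 of these, or 62.2%, had a site of the miR-17 seed. Among all 11065 genes with any 3′UTR site, 9.12% had one. Of 30 genes listed for the miR-92 group, 13 had a site, 43.3% against 5.40% of all genes. Of 24 genes listed for the miR-19 group, 9 had one, 39.1% of the 23 with any site against 8.25%. Of 15 genes for miR-18, 3 had one, which were Notch2, Irf2 and Nr3c1, against 4.80% of all genes. By library these were 1 of 13, 1 of 11, 2 of 10, 2 of 14 and 1 of 11, with Notch2 in each, which is too few genes for a comparison. The lists were drawn from general knowledge of these miRNAs, but with earlier results of these data known, so they may not be independent of the data. Genes with long or abundant 3′UTRs were not matched in the comparison.

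The share of the miR-17 list was highest at e12.5, where 18 of 34 genes had a site, and lowest in adult, with 4 of 26. The background share moved in the same way, from 7.40% to 2.73% of genes with any 3′UTR site. In the miR-92 group it was 9 of 26 at e12.5 and 5 of 22 in adult, with a background of 4.36% and 2.03%. The order of these lists changed with stage, since the miR-92 list had the higher share at e18.5, 34.8% against 29.0%, and in adult, 22.7% against 15.4%. Bcl2l11, which encodes the apoptosis activator BIM, had a 3′UTR site of some miRNA in all 5 libraries and a site of the miR-92 group at e18.5 alone. A site not listed is one under 5 reads or without a cluster, not one shown to be unbound.

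**Figure D4:**
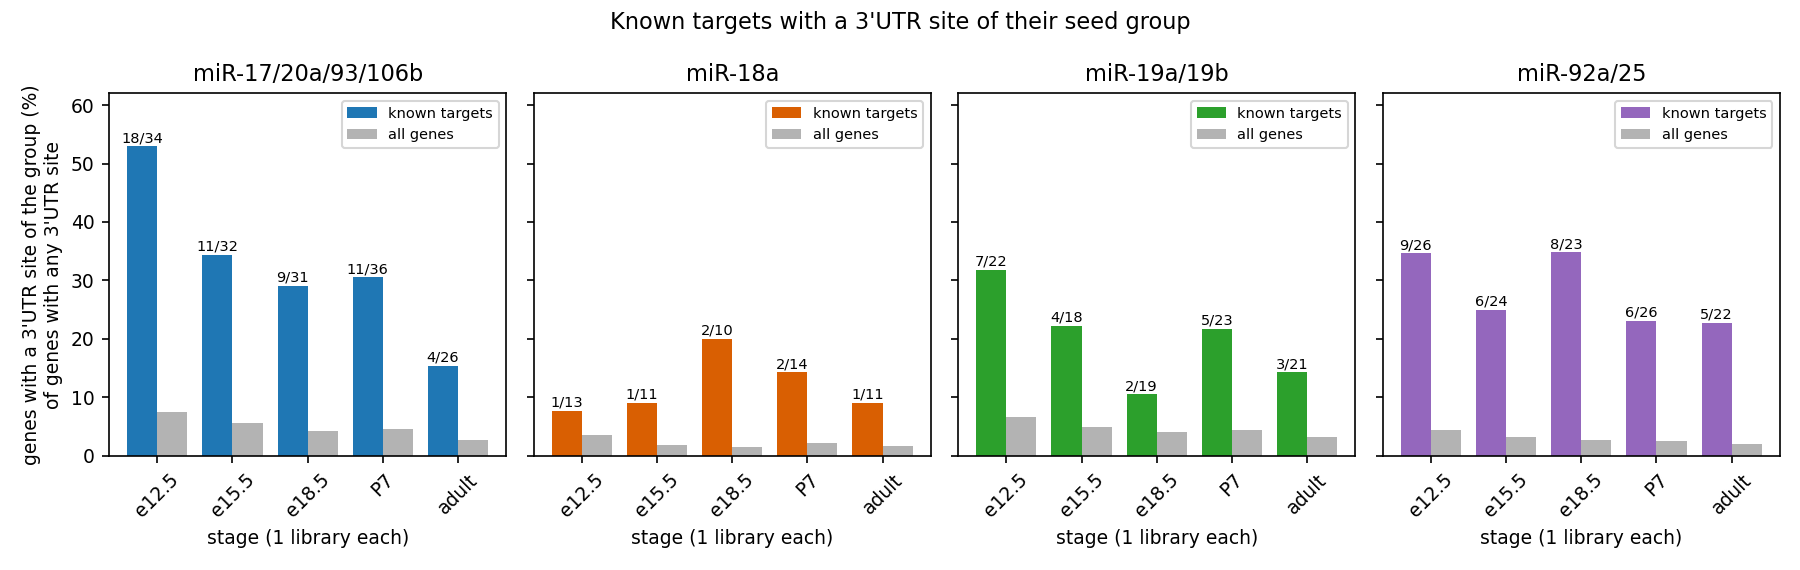
Percent of genes with any 3′UTR site that had a site of the seed group, for literature targets of that group (coloured bars, with counts) and for all genes (grey bars), at the 5 stages. The coloured bars exceed the grey bars in every panel and library, from 18 of 34 genes for miR-17 at e12.5 down to single genes for miR-18.

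Regulators of the G1 to S transition were described by the RB-E2F list. Of its 24 genes, 11 of the 22 with any 3′UTR site had a site of at least 1 of the 4 groups at e12.5. At the later stages 4 of 22, 5 of 19, 8 of 22 and 1 of 9 had one. These were 50%, 18.2%, 26.3%, 36.4% and 11.1%, and over all genes the share was 18.2%, 13.4%, 10.9%, 12.1% and 8.74%. At e15.5 and in adult the list was thus near the background. Several of its genes, among them E2f1, E2f2, Rbl1 and Ccnd1, were also on the miR-17 target list, so the comparisons overlap. The libraries with the most 3′UTR clusters were e12.5, with 39452, and P7, with 29603. The sites of E2f1, the activator of S-phase genes, and Rbl1, the pocket protein p107, are shown because both recurred at 4 stages, with that of the autophagy kinase gene Ulk1, which recurred at all 5.
E2f1, chr2:154560201-154560228, minus strand: ggctctaactGCACTTTtggtgtccttg
Rbl1, chr2:157147466-157147493, minus strand: cctgatcaaaGCACTTTtggattgttct
Ulk1, chr5:110785669-110785696, minus strand: agtcaccggaGCACTTTAtgcatacaga
The E2f1 site had 388, 12, 65 and 48 reads from e12.5 to P7, and was not listed in adult. The Rbl1 site had 526, 295, 277 and 45 reads in the same order and was not listed in adult. Cdkn1a, which encodes the cell cycle inhibitor p21, showed the opposite stages, with 10 reads at P7 and 91 in adult at a 7mer-m8 and no entry before birth. The Ulk1 site had 292, 635, 12, 31 and 15 reads. The read numbers are unscaled, and the 3 fetal tables sum 2 lists.

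Of 18 erythroid and haematopoietic regulators, 6 of 18 had a site at e12.5, 5 of 15 at e15.5, 3 of 13 at e18.5, 1 of 15 at P7 and 0 of 9 in adult. The embryonic shares of 33.3%, 33.3% and 23.1% lay above the share over all genes, and that at P7, 6.67%, lay under it. Tal1, a master factor of blood formation, had a miR-17 site with 548, 74 and 8 reads at the embryonic stages. Kit, the stem cell factor receptor, had one with 92 reads at e12.5 and 371 at e18.5. Zbtb7a, which encodes the erythroid repressor LRF, had one with 316, 16, 98 and 17 reads from e12.5 to P7. None of these genes had a listed site of the groups in adult. The 0 of 9 in adult stood beside a share of 8.74% over all genes, so fewer than 1 gene of 9 would carry a site at that share.

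Of 20 hepatocyte genes, 6 of 17, 2 of 17, 4 of 17, 8 of 18 and 5 of 16 had a site from e12.5 to adult. These were 35.3%, 11.8%, 23.5%, 44.4% and 31.2%, beside 18.2%, 13.4%, 10.9%, 12.1% and 8.74% over all genes, so that e15.5 lay under the background. For this list and those below, 6mers were counted too, and genes were not matched for mRNA level. In adult Alb, Cebpb and Rxra had 6mers alone. The 6mer of miR-18 in Rxra, the partner of many nuclear receptors, had 3286 reads at P7 and 1150 in adult and was not listed before birth, and it was the miR-18 3′UTR site with the most reads in both of those libraries. Of 23 genes of the PI3-kinase and apoptosis list, 6 of 20, 4 of 12, 6 of 19, 6 of 19 and 4 of 17 had a site, between 23.5% and 33.3% and above the background of each library. Mcl1, which encodes an anti-apoptotic protein, and Pik3cb, a catalytic subunit of PI3-kinase, carried miR-92 sites at all 5 stages. Of 22 TGF-beta and BMP genes, 7 of 17, 3 of 13, 1 of 15, 4 of 17 and 1 of 14 had a site. The shares were 41.2%, 23.1%, 6.67%, 23.5% and 7.14%, under the background at e18.5 and in adult. That gene in adult was Acvr1b, a type I activin receptor, with 22 reads at a 7mer-A1 of the miR-17 group.

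Few target genes were shared by all stages. A 3′UTR site of the group was found in 1009 genes for miR-17, 913 for miR-19, 597 for miR-92 and 531 for miR-18 over the 5 libraries. All 5 libraries had it in 24, 28, 18 and 5 of these genes, and 600, 517, 355 and 381 genes had it in a single library. Of the 11065 genes with a 3′UTR site of any seed, 25.7% had one in all 5 libraries, a wider count than that of 1 group. Counted as positions, 1.92%, 2.56%, 2.85% and 0.705% of the 3′UTR sites recurred in all libraries, beside 0.585% of the 401445 3′UTR sites of all seeds. The libraries differed in depth, with between 15914 and 39452 3′UTR clusters, so that a site missing in one may lie under its detection limit.

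54 sites with 7 or more matched bases recurred in all 5 libraries, of which 30 were 8mers. In the miR-92 group 13 of 15 were 8mers. The share of 8mers among recurrent sites of all seeds is not given here, so these counts cannot be read as a trait of the groups. GENCODE places 48 of the 54 in a 3′UTR of at least 1 coding transcript of the gene, and 6 in coding exons of every coding transcript there, although the tables also call them 3′UTR. The reads of these sites were scaled to 1000000 reads of mRNA clusters outside miRNA hairpins and globin genes, a unit called site rpm here. From e12.5 to adult, 28 of the 54 were lower by at least 2-fold and 9 were higher. Over the 1235 such sites of all seeds, 38.5% were lower and 31.5% were higher. The median log2 change was -0.15 over all seeds, -1.72 over the 19 sites of the miR-17 group, -0.79 over the 18 of the miR-19 group and -2.25 over the 15 of the miR-92 group. At e12.5, e15.5 and e18.5 the site was listed in both lists for 31, 16 and 36 of the 54, and in the second list alone for 22, 37 and 15. These reads depend on the level of the mRNA as well as on the miRNA, and the part of the mRNA was not tested.

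The highest 3′UTR site of the 4 groups before birth was in Hipk1, a homeodomain-interacting kinase gene. This miR-19 8mer had 740, 797, 902, 375 and 8.72 site rpm from e12.5 to adult, so that it was high through P7 and low in adult, a log2 change of -6.41 from e12.5. It was the miR-19 3′UTR site with the most reads in each of the first 4 libraries. Its embryonic reads were 1205, 156 and 1886 in the first list and 4202, 2518 and 458 in the second. Pnrc1, a nuclear receptor coactivator gene, rose to P7 first, with 91.8, 154, 265, 367 and 19.5 site rpm. Lifr, the receptor gene of leukaemia inhibitory factor, followed the same course with 27.4, 53.3, 190, 305 and 43.6. Its 7mer-m8 had a conservation score of 0.003, while those of Hipk1 and Pnrc1 had scores of 1.

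In the miR-17 group the site in Slc16a6, a monocarboxylate transporter gene, had 666, 154, 320, 9.71 and 9.06 site rpm from e12.5 to adult. As a ratio, the largest drop between neighbouring stages lay between e18.5 and P7, although in absolute site rpm it lay between e12.5 and e15.5, and 803 of its 832 reads at e18.5 were in the first list. Eif4g2, which encodes a translation initiation factor, had 314, 330, 120, 88.6 and 78.4, with 1032 of its 1108 reads at e15.5 in the second list, and Trip11, a Golgi tether gene, had 173, 215, 188 and 145 through P7 and 36 reads in adult. Fbxo22 had 105, 184, 102, 19.04 and 119, and its reads at e15.5 were all in the second list. GENCODE places its site in coding sequence. Atxn1l peaked at P7 with 199 site rpm, and Arhgef18 peaked at e18.5 with 204, where 457 of its reads were in the first list and 73 in the second, and had 4.88 in adult. The reads of Atxn1l at e12.5 and e15.5 were all in the second list. The largest rise in this group was in the thiamine transporter gene Slc19a2, with 69, 31, 5, 28 and 198 reads, 7.31-fold from e12.5 to adult after scaling. All embryonic reads of Slc19a2 were in the second list.

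In the miR-92 group, Sertad3, which encodes a SERTA domain transcription cofactor, had 511, 350, 249, 117 and 4.18 site rpm from e12.5 to adult. With the lists summed, it declined at each step. Its embryonic reads were 1602, 246 and 583 in the first list and 2135, 930 and 63 in the second. Mcl1 had 462, 391, 146, 46.6 and 48.8, and Dnajb12, a co-chaperone gene of the endoplasmic reticulum, had 238, 153, 281, 208 and 39.4. Edem1, a gene of protein degradation in the endoplasmic reticulum, had 43.4, 72.1, 128, 68.0 and 54.4, highest at e18.5, where 320 of its 332 reads were in the first list. Srpr, which encodes a receptor subunit for the signal recognition particle, had 43.2, 70.3, 44.6, 33.4 and 3.14. Mia3, a gene of collagen export, had 10.7, 145, 41.2, 64.1 and 75.3, so that it was 7.06-fold higher in adult than at e12.5 but highest at e15.5. Man2a1, a Golgi mannosidase gene, had 7.39, 22.3, 6.54, 28.8 and 75.3, which is 10.2-fold from e12.5 to adult. The reads of Man2a1 at all embryonic stages, and those of Mia3 at e12.5, were in the second list alone.

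The largest rise among the 54 sites was in Hfe2, which encodes the BMP coreceptor hemojuvelin. Its miR-19 7mer-m8 had 8, 23, 34, 128 and 355 reads from e12.5 to adult, 113-fold after scaling. The value at e12.5 rests on 8 reads, and all its embryonic reads were in the second list. Abca1, the cholesterol exporter gene, had 239, 93, 66, 102 and 257 reads, 2.74-fold from e12.5 to adult after scaling. Of the 2 miR-18 sites, Notch2 had 57.2, 3.58, 16.2, 53.2 and 5.93 site rpm and Rabl6 had 11.9, 12.8, 4.23, 59.8 and 33.1. Both were lower in adult than at P7, while from e12.5 to adult the first was lower and the second higher.

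**Figure D5:**
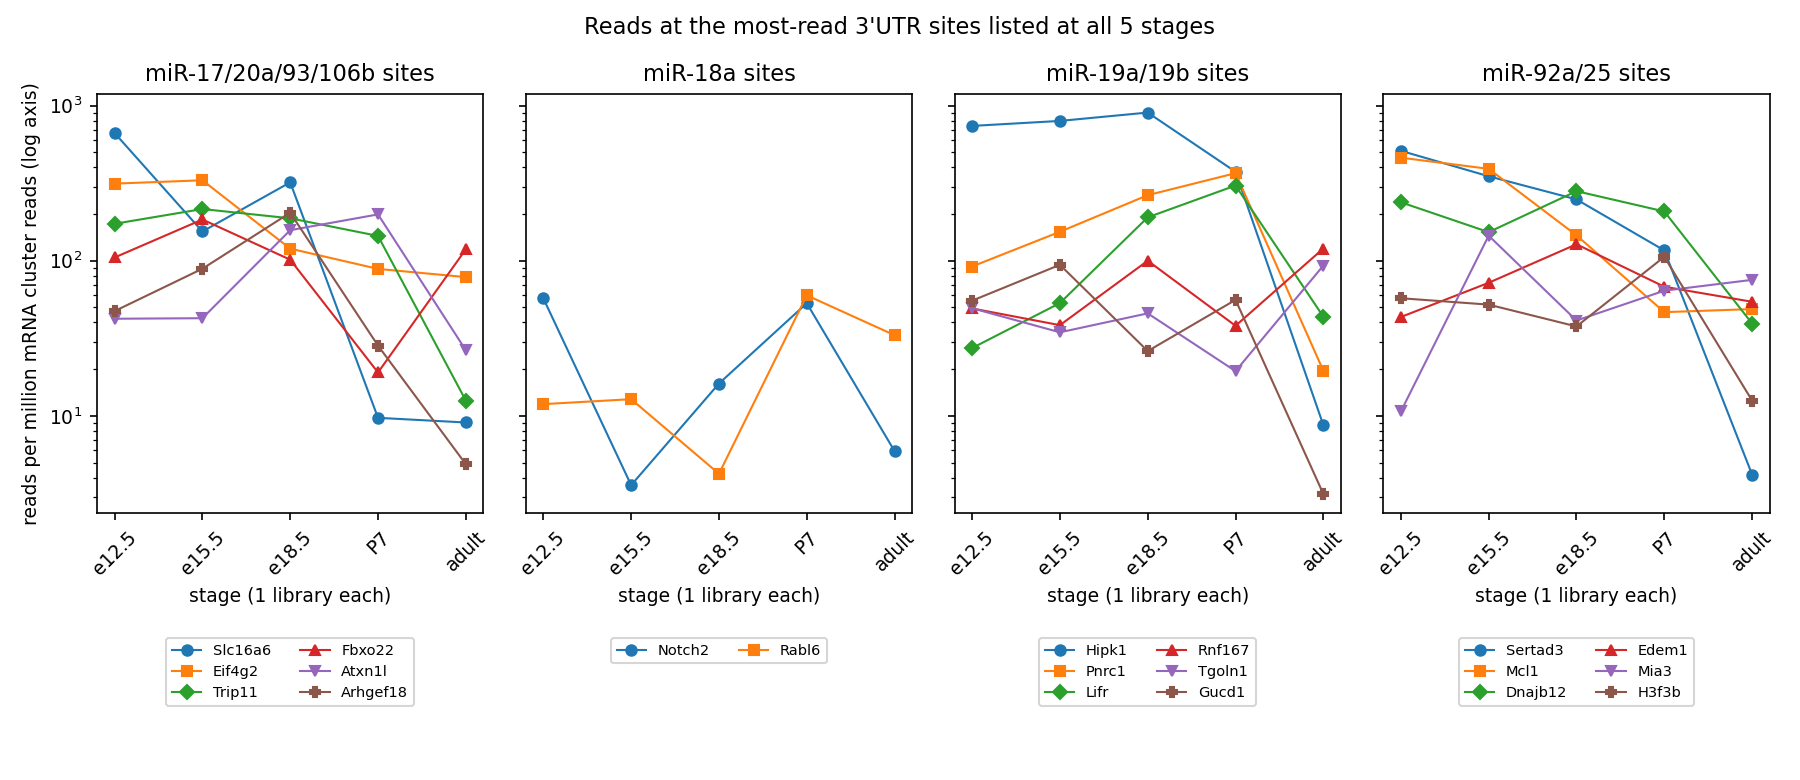
Site rpm (log axis) at the 3′UTR sites with the highest mean in each seed group that were listed at all 5 stages, 1 line per gene and 1 point per library. Hipk1, Slc16a6 and Sertad3 start between 511 and 740 and end under 10, while Fbxo22 and Rnf167 end near 119 and 120.

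Reads of a cluster cannot be divided among the miRNAs that match it. A 3′UTR cluster with a longer site of the miR-17 group also held matches of a median of 8 other seed families at e12.5, and one of the miR-92 group held 5. Clusters without a match of another family were between 0% and 11.2% of those of a group and library.

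Several coding sites exceeded the 3′UTR sites in reads. An 8mer of the miR-19 group in exon 13 of Alb, the albumin gene, and a pair of overlapping matches in Fryl are shown, the first for its reads and the second for its overlap. Both lie in coding exons, and capitals mark the matched bases.
Alb, chr5:90474627-90474654, plus strand: catggatgacTTTGCACAgttcctggat
Fryl, chr5:73100292-73100319, minus strand: acgggctttaTTTGCACTTTtggaggta
The Alb site had 1149, 1705, 2911, 3987 and 38774 reads from e12.5 to adult, where it held 59.7% of all reads at CDS sites of the group. After scaling it rose from 157 to 13517 site rpm while miR-19a-3p and miR-19b-3p fell, and its conservation score was 0.12. Itih4, which encodes a plasma protein of hepatocytes, had a miR-18 site with 29, 5, 997, 1984 and 2840 reads. Apoh, another plasma protein gene, had a miR-19 site with 59, 62, 453, 1363 and 890 reads. F9, the gene of clotting factor IX, had a miR-92 site with 46, 195, 126, 160 and 679 reads. All 4 genes are known as products of hepatocytes. Trf, the transferrin gene and another such product, had a miR-17 site with 203, 410, 263, 178 and 112 reads, a change of 1.41-fold after scaling that was under the 2-fold limit.

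Coding sites of globin and other genes went the other way. The miR-18 site in the beta-globin genes Hbb-bs and Hbb-bt had 24092, 19869, 2816, 691 and 224 reads from e12.5 to adult. Both copies carried the same numbers, so their reads cannot be told apart and were counted for each. Mpp1, which encodes a protein of the red cell membrane, had a miR-17 site with 4550, 3241, 802, 292 and 20 reads, the highest mean site rpm among the CDS sites of that group found in all libraries. Gpx1, an antioxidant enzyme gene active in many cell types, had a miR-92 site with 2123, 1192, 167, 114 and 69 reads.

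The Fryl sequence holds a miR-19 match followed 3 bases further by a miR-17 match, and both matches lay in the same reads, 630, 241, 298, 125 and 10 from e12.5 to adult. Such overlaps recurred. At e12.5, 97 of 1878 miR-19 sites, or 5.17%, had a miR-17 site at that distance, and at the later stages 5.54%, 5.64%, 4.71% and 1.92% did. The overlap with miR-18 sites at the same distance was between 0.885% and 1.48% of miR-19 sites. Counts of the miR-17, miR-18 and miR-19 groups are not independent for this reason.

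Some genes had sites of several groups. At e12.5, 1532 genes had a 3′UTR site of at least 1 group, of which 236 had sites of exactly 2 groups, 33 of 3 and 2 of 4. In adult these were 503, 39, 4 and 0. No gene had longer 3′UTR sites of at least 3 groups in at least 4 libraries. Sites of 2 groups, each in at least 4 libraries, were found in 14 genes, among them Tnrc6a and Tnrc6b, which encode the GW182 partners of Argonaute, and Btg2, an antiproliferative gene. These examples were chosen after their values were seen. In 11 of the 14 the pair was miR-17 with miR-19.

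Summed over 3′UTR sites outside hairpins and globins, the miR-17 group had 10749 site rpm over 688 sites at e12.5 and 2548 over 161 sites in adult. The miR-19 group had 7631 over 602 sites and 2487 over 182, and the miR-92 group 6352 over 385 and 2106 over 117. The miR-18 group had 3822 over 302 sites and 1919 over 100. The mean per site was 15.6, 25.5, 29.4, 14.4 and 15.8 from e12.5 to adult in the miR-17 group, and 12.7, 21.0, 27.2, 14.4 and 13.7 in the miR-19 group. It was 16.5, 31.5, 29.9, 15.9 and 18.0 in the miR-92 group, and 12.7, 24.5, 24.0, 18.6 and 19.2 in the miR-18 group, so that in each group e15.5 and e18.5 had the highest means. Sums over CDS sites rose in the miR-19 group, from 9436 to 22649, and in the miR-18 group, from 4825 to 13469, with Alb as the gene with the most reads in both groups in adult. With the Alb sites left out, a sum added after seeing the data, the miR-19 group had 9279 at e12.5 and 9132 in adult, so that its rise rested on the 1 Alb site, and the miR-18 group had 4734 and 10263.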

How the data were processed

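Ago HITS-CLIP was performed by the authors on liver of C57BL/6 mice (C57BL/6J in the methods), with 3 exposures to ultraviolet light at 254 nm, Ago2 antibodies at all stages and an Ago1 antibody in addition at P7 and in adult. The authors preprocessed reads with FASTX-Toolkit, aligned them to mm10 and miRBase precursors by Bowtie, grouped overlapping reads into clusters and searched these for seed matches. The submitters' processing notes also name mm9, and the coordinates matched mm10 sequence. The methods name 2 biological replicates for Ago2, while the labels give 1 sample per stage, and whether the 2 lists in each embryonic table are these replicates is not given in the sources used here.

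The deposited read number of a cluster is a signal in whole numbers of at least 5, not scaled to depth. The deposited conservation is a fraction from 0 to 1, and the deposited free energy is a score that was not used in the report. The other deposited value is the interaction name, which holds the miRNA and a whole number taken here as its read count, since the tables do not explain it. This number was scaled to reads per 1000000 miRNA reads (rpm), with the highest number kept where gene copies differed. Reads of sites were scaled to the reads of mRNA clusters outside miRNA hairpins and globin genes, between 2573459 and 7308251 per library. Globin genes held between 1.39% and 32.2% of mRNA cluster reads.

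The members, gene lists and rules were chosen with earlier results of these data known. Entries were collapsed by seed group and by the position that pairs with base 2 of the miRNA, so miRNAs with the same seed cannot be told apart at a site. With 1 library per stage no p-value was computed. A difference was called from its size, at least 2-fold for reads and 1.5-fold for site shares, with Wilson 95% intervals for shares and Katz intervals for ratios, which cover counting error only. PCR reads are not independent molecules. On simulated data with 200 of 679 families changed 2-fold between e12.5 and adult, the site share call recovered 98% and called 3.13% of unchanged families. There, counts were drawn independently, and unchanged families had the same true share in both libraries. In the data the median family ratio was 0.802, so these rates need not hold for the libraries. Named genes were the 6 per group with the highest mean reads among 3′UTR sites of at least 7 matched bases at 1 position in all libraries, the 3 largest rises and falls among these sites, the 5 highest CDS sites, and genes of the lists. Alternatives varied gene copies, scaling, lists, pseudocount, seed types, minimum reads, regions and counting units. Python 3.11.15 with numpy 2.4.6, pandas 2.3.3, scipy 1.17.1 and matplotlib 3.10.9 was used, with samtools 1.23.1. Transcript positions came from GENCODE vM21 and mature sequences from RefSeq.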

Additional observations from a re-analysis of the deposited data

How the results depend on the processing

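The direction of the abundance change was kept in 28 of 28 alternatives for the seed groups, from -5.39 to -1.75, and in 54 of 54 for single members. The ratio of site shares stayed below 1 in 24 of 24, from 0.369 to 0.937. With the numbers of gene copies summed, the changes of the miR-17, miR-18, miR-19 and miR-92 groups were -2.25, -4.15, -4.47 and -3.79. Without miR-142-3p, miR-144-3p and miR-451a in the total they were -3.08, -4.98, -5.39 and -4.72. The first list gave -2.05, -3.43, -5.09 and -3.67, and the second -1.75, -3.80, -3.71 and -3.40. A pseudocount of 10 rpm gave -3.67 for miR-18 and -4.10 for miR-19, and all miRNAs with the seed gave -3.09 for miR-92.

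With genes in place of clusters the ratios of site shares were 0.369, 0.481, 0.471 and 0.466, and with at least 7 matched bases that of miR-18 was 0.629, so that these passed the 1.5-fold limit. With at least 7 matched bases, genes found in all 5 libraries numbered 2 for miR-18 and 18 for miR-19. Under the same limit the 3′UTR to CDS ratio of the miR-17 group was 1.45 at e12.5, 1.25 at e18.5, then 1.36 and 0.957 after birth, and that of the miR-92 group was 1.54, 1.22, 1.46, 1.36 and 0.852 from e12.5 to adult. Among 3′UTR sites alone the share with 7 or more matched bases was, from e12.5 to adult, 68.3%, 69.6%, 75.2%, 70.9% and 69.6% in the miR-17 group. It was 71.0%, 71.7%, 74.8%, 61.7% and 65.8% in the miR-19 group, and 67.1%, 67.3%, 78.9%, 70.0% and 58.5% in the miR-92 group. With a minimum of 10 reads the miR-17 share at e18.5 was 61.6%. The other 121 values moved less than their counting interval, or for counts by less than 1.5-fold. Scaling of site reads to the library totals of the study, and keeping globin clusters in the total, were added after seeing the data, and kept the direction of the median change in 8 of 8 cases. Leaving out the Alb sites, also added then, moved the log2 change of summed CDS reads from 1.26 to -0.023 in the miR-19 group and from 1.48 to 1.12 in the miR-18 group.

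No paired analysis was possible because each stage had 1 library. Stages before and after birth differed in antibody, in depth and in blood cell miRNAs, whose parts in the differences were not tested. Sites under 5 reads are not in the tables, which limits the shallower libraries more.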
